A study of Mus musculus with 6 samples.

Results

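The 10 genes described here code for enzymes that break down tryptophan along the kynurenine pathway and make NAD from its product or from nicotinamide: Tdo2, Ido2, Afmid, Kmo, Kynu, Haao, Acmsd, Qprt, Nadsyn1 and Nampt. They were chosen by name, and all 10 were found among the 23412 gene symbols of the count table and passed the filter on low counts. RNA was sequenced from the liver of C57BL/6J mice, an inbred strain, labelled as 8 weeks old. All mice had eaten a high-fat diet for 4 weeks, with 3 days of injections under the skin afterwards. The group HFD_Lira3d received liraglutide at 300 µg/kg, a drug that activates the receptor of the gut hormone glucagon-like peptide 1, and the group HFD_PBS3d received phosphate-buffered saline (PBS). Each group has 3 libraries, named here by group and column number (Lira161, Lira162 and Lira164, PBS155, PBS157 and PBS158). With no group on another diet or matched for food intake, an effect of eating less and a direct effect of the drug cannot be told apart. The labels do not say that the 3 libraries of a group came from separate mice, so the spread that p-values rest on may be technical.

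The liver takes most dietary tryptophan that is not used for protein into the kynurenine pathway. The ring is opened by a dioxygenase, the formyl group is removed, and hydroxylation, cleavage and a further ring opening lead to an unstable semialdehyde (ACMS). ACMS either closes to quinolinate, from which NAD is built, or is taken by a decarboxylase towards complete oxidation. Cells also regain NAD from nicotinamide by salvage, whose rate-limiting enzyme is encoded by Nampt.

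Total counts per library lay between 20888991 and 27007182. Of 10 hepatocyte markers, 9 were tested and 0 of these passed edgeR's test. At an unadjusted p below 0.05, 1 was higher and 3 lower, against 12.5% and 13.1% of all tested genes. DESeq2 called 1 higher and 2 lower, and limma-voom 0. The median log2 fold change of the 9 was -0.23, with 5 of them below 0. The summed level of the 10 markers was 81258 to 100150 CPM under liraglutide and 93703 to 114665 under PBS. CPM are each library's counts scaled to a common size, here with TMM factors. The remaining marker, Ass1, had at most 4 counts in any library. Why it had so few was not tested, and the counting tool and annotation are unknown. In a piece of liver, fewer cells of a type and less RNA per cell cannot be told apart.

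After liraglutide, transcripts of 4 of the 10 enzymes fell and none rose. Ido2 fell 2.69-fold, Afmid 2.41-fold, Haao 1.91-fold and Kmo 1.41-fold. The 4 genes cover 1 of the 2 entry dioxygenase genes among them and 3 of the 4 steps between N-formylkynurenine and ACMS. Tdo2, Kynu, Qprt and Nadsyn1 had log2 fold changes between -0.09 and 0.06, with overlapping groups. Over all 12626 tested genes, 4.69% fell and 4.08% rose at an adjusted p below 0.05 (edgeR's quasi-likelihood test, Benjamini-Hochberg adjustment). The median log2 fold change was -0.44 over the 10 enzymes and 0.01 over all tested genes. At an unadjusted p below 0.05, 6 of the 10 were lower and 0 higher, against 13.1% lower and 12.5% higher over all tested genes. DESeq2 called 5 lower and 0 higher (6.41% and 5.75% of all genes with an adjusted p), and limma-voom 4 lower and 0 higher (4.93% and 4.06%). In 6 of the 10 every liraglutide library lay below every PBS library, which was so for 16.4% of all tested genes.

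**Figure D1:**
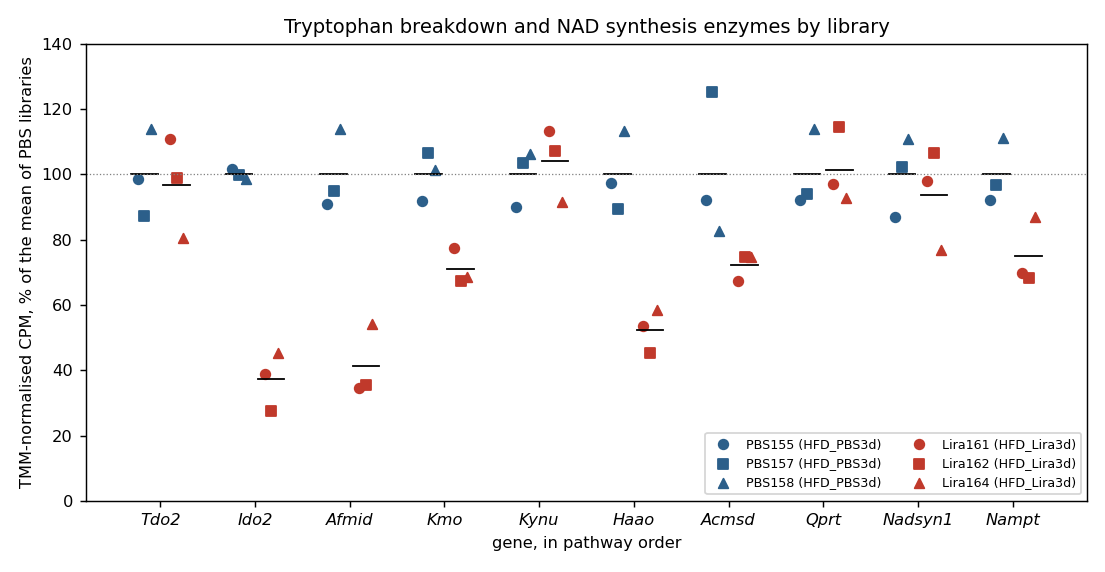
Level of each enzyme's transcript in each library (TMM-normalised CPM as a percent of the mean of the 3 PBS libraries, genes in pathway order; points are libraries, black bars group means). Liraglutide libraries lie between 27.6% and 45.3% for Ido2 and between 34.6% and 54.2% for Afmid, while both groups overlap for Tdo2, Kynu, Qprt and Nadsyn1.

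Tryptophan dioxygenase and the indoleamine dioxygenases both run the first step. Tdo2 codes for tryptophan 2,3-dioxygenase, the main hepatic enzyme (chromosome 3, 81957090 to 81976202, GRCm38). Its level was 2203, 1970 and 1599 CPM in Lira161, Lira162 and Lira164 and 1959, 1738 and 2269 CPM in PBS155, PBS157 and PBS158. The groups overlapped in part, with Lira164 below every PBS library and PBS158 above every liraglutide library. The log2 fold change of Tdo2 was -0.05 ± 0.16 (SE; 95% interval -0.40 to 0.31; edgeR adjusted p = 0.880).

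Ido2 codes for indoleamine 2,3-dioxygenase 2, a relative of Ido1 with low activity on tryptophan (chromosome 8, 24531892 to 24576333). It was at 36.7, 26.1 and 42.8 CPM in the liraglutide libraries and at 95.9, 94.3 and 93.1 CPM in the PBS libraries, in the order above. The PBS libraries were close together, and every liraglutide library lay far below them. Ido2 fell by 1.43 ± 0.16 on the log2 scale (95% interval -1.79 to -1.06, edgeR adjusted p = 0.00391), the largest change among the 10 enzymes. Its interval does not reach that of Tdo2. Per kilobase of exon, Tdo2 was 19.7 ± 2.83 times as abundant as Ido2 under PBS and 54.0 ± 18.0 times under liraglutide. These are ratios within each library (SD, n = 3 each), chosen after the values were seen. The length is that of all GENCODE exons of a gene. The annotation used for counting is unknown, so levels per kilobase compare different genes only roughly. The comparison of a ratio between the groups does not depend on the lengths. Ido1, the third gene for the first step of the pathway, had 0 counts in all 6 libraries.

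Afmid codes for arylformamidase, which turns N-formylkynurenine into kynurenine (chromosome 11, 117825924 to 117839908). Liraglutide libraries were at 63.1, 64.4 and 98.8 CPM and PBS libraries at 165.9, 173.2 and 207.4 CPM. Lira164 was the highest of its group and still below every PBS library. Afmid fell by 1.27 ± 0.19 on the log2 scale (95% interval -1.70 to -0.85, edgeR adjusted p = 0.00773).

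Afmid starts 168 bp from Tk1, a thymidine kinase gene of dividing cells on the opposite strand, and their exons overlap by 83 bp. Tk1 was at 7.69 ± 4.68 against 26.0 ± 6.39 CPM (SD, n = 3; log2 fold change -1.76 ± 0.46, edgeR adjusted p = 0.0772). GENCODE also lists Gm20708 on the strand of Afmid with 1566 bp of shared exon, but this symbol is not in the count table. How the counting treated strand and shared reads is unknown here, which leaves the value of Afmid uncertain to that extent.

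Kmo codes for kynurenine 3-monooxygenase, a flavin enzyme of the outer mitochondrial membrane (chromosome 1, 175620381 to 175662116). It was at 349.1, 302.9 and 308.5 CPM under liraglutide and at 414.2, 480.9 and 456.4 CPM under PBS. The groups did not overlap, but the gap between Lira161 and PBS155 was narrower than that of Ido2, Afmid or Haao relative to their levels. Kmo fell by 0.49 ± 0.11 on the log2 scale (95% interval -0.74 to -0.24, edgeR adjusted p = 0.0280). The adjusted p was 0.0575 without Lira161, 0.109 without Lira162, 0.0991 without PBS157 and 0.0892 without PBS158, each of which ends the call.

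Kynu codes for kynureninase, which cleaves 3-hydroxykynurenine to 3-hydroxyanthranilate (chromosome 2, 43555329 to 43682715). Its levels were 180.0, 170.1 and 145.5 CPM under liraglutide and 143.1, 164.3 and 168.8 CPM under PBS. Both groups covered nearly the same range, and the log2 fold change was 0.06 ± 0.12 (95% interval -0.20 to 0.32, edgeR adjusted p = 0.788). Kynu thus stands between Kmo and Haao in the pathway without passing the test that both passed, and its interval does not reach that of either.

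Haao codes for 3-hydroxyanthranilate 3,4-dioxygenase, which makes ACMS (chromosome 17, 83831156 to 83847963). It was at 175.3, 148.0 and 191.1 CPM under liraglutide and at 318.7, 292.7 and 371.3 CPM under PBS. All liraglutide libraries lay at 45.2% to 58.3% of the PBS mean. Haao fell by 0.93 ± 0.13 on the log2 scale (95% interval -1.23 to -0.63, edgeR adjusted p = 0.00589).

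The promoter stretch of Haao is shown because it was the one member window with the core of a DR1 element (AGGTCANAG, searched on both strands), the repeat that HNF4 and PPAR:RXR receptors bind. RefSeq windows, each from 250 bases before a start to 50 after it (GRCm38.p6), were at hand for 8 of the 10 genes, not for Ido2 and Kynu. The core was in 1 of these 8 windows and in 2.01% of all 32851 windows. The 30 bases below come from the minus strand, chr17:83846832-83846861, with the match in capitals as its reverse complement. It begins 61 bases before the RefSeq start, and GENCODE exons of other Haao transcripts cover this stretch. Other motifs were searched in the same 8 windows, with the GC box and E-box given below. The glucocorticoid receptor half-site AGAACA was in 2 (Kmo and Haao) and in 19.0% of all windows. TATAAA and CCAAT were in 1 each (Tdo2) and in 13.6% and 37.4% of all windows. The D-box TTATGTAA was in 0 and in 0.94% of all windows. A match is a description of letters, not a site shown to be bound.
Haao: ttgctcagctCTTTGACCTctggtaaccta

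**Figure D2:**
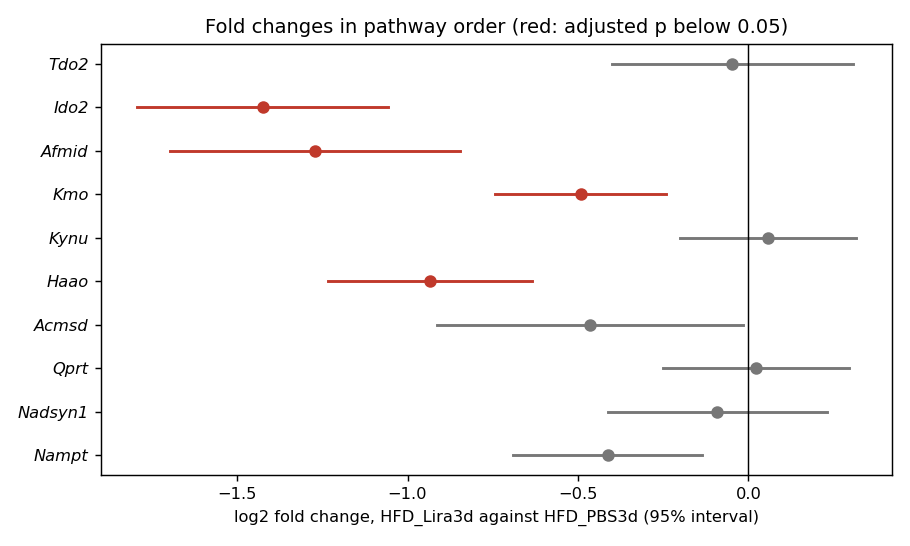
Log2 fold change of each enzyme, liraglutide against PBS, with its 95% interval (genes in pathway order from top to bottom; red for an adjusted p below 0.05). Ido2, Afmid, Kmo and Haao lie left of 0 from -1.43 to -0.49, with Tdo2 and Kynu beside them at -0.05 and 0.06. Acmsd and Nampt, at -0.47 and -0.41, did not pass the test, but their intervals also lie left of 0.

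At the branch after Haao, Acmsd codes for the decarboxylase that takes ACMS towards oxidation and away from NAD (chromosome 1, 127729413 to 127767978). It was the least abundant of the 10, at 78, 108 and 100 counts under liraglutide and 140, 163 and 96 under PBS. In CPM these are 3.76, 4.17 and 4.17 against 5.13, 6.98 and 4.61. The groups did not overlap after scaling, but PBS158 was close to the liraglutide libraries. Acmsd did not pass the test (log2 fold change -0.47 ± 0.20, 95% interval -0.91 to -0.02, edgeR adjusted p = 0.180), and its value was -0.27 without PBS157.

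Qprt codes for quinolinate phosphoribosyltransferase, the first enzyme on the NAD side of the branch (chromosome 7, 127107114 to 127122226). It was at 110.7, 130.5 and 105.8 CPM under liraglutide and at 105.1, 107.0 and 129.7 CPM under PBS. The 2 groups had nearly equal means and ranges (log2 fold change 0.02 ± 0.12, 95% interval -0.25 to 0.29, edgeR adjusted p = 0.933). Per kilobase, the ratio of Acmsd to Qprt within a library was 0.032, 0.030 and 0.037 under liraglutide and 0.046, 0.061 and 0.033 under PBS. Acmsd was thus far less abundant than Qprt in every library, and the groups overlapped in this ratio. The ratio of Haao to Qprt, chosen after the values were seen, was 0.852 ± 0.194 under liraglutide and 1.63 ± 0.084 under PBS (SD, n = 3).

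Nadsyn1 codes for NAD synthetase, the last step of this route (chromosome 7, 143795584 to 143822849). Liraglutide libraries were at 23.3, 25.3 and 18.3 CPM and PBS libraries at 20.7, 24.3 and 26.4 CPM. The groups overlapped (log2 fold change -0.09 ± 0.14, 95% interval -0.41 to 0.23, edgeR adjusted p = 0.729). Nadsyn1 starts 296 bp from Dhcr7, a gene of the last step of cholesterol synthesis that is read in the other direction. Dhcr7 fell from 62.4 ± 14.5 to 25.7 ± 2.18 CPM (SD, n = 3; log2 fold change -1.28 ± 0.16, edgeR adjusted p = 0.00508).

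The stretch between these 2 starts is shown because 1 of the genes it separates fell and the other did not pass the test. The 250 bases before the RefSeq start of Nadsyn1 (minus strand, chr7:143822853-143823102, GRCm38.p6) lie outside all GENCODE exons and hold 66.0% G and C, against a median of 52.4% over all windows. Capitals mark 2 matches to GGGCGG, the GC box, a motif added after the values were seen. It was found on either strand in the windows of 3 of the 8 members (Afmid, Nadsyn1 and Nampt) and in 35.7% of all windows.
Nadsyn1: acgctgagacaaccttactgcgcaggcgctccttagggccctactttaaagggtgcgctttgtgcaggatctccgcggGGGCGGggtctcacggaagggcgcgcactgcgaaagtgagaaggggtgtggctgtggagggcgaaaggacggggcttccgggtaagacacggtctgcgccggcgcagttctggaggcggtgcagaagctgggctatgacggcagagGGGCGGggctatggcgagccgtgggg

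Nampt codes for nicotinamide phosphoribosyltransferase, which opens salvage (chromosome 12, 32819545 to 32853349). It was at 77.6, 75.7 and 96.6 CPM under liraglutide and at 102.2, 107.3 and 123.4 CPM under PBS. The groups did not overlap, with Lira164 close to PBS155. Nampt did not pass the test (log2 fold change -0.41 ± 0.12, 95% interval -0.69 to -0.14, edgeR adjusted p = 0.0698). It passed without Lira164 (-0.54, adjusted p = 0.0181) and in the Wald test of DESeq2 (-0.42, adjusted p = 0.0428).

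Nampt is known as an output of the circadian clock in liver. Among 18 tested clock and clock output genes, 3 fell and 0 rose (median log2 fold change -0.29), against 4.69% and 4.08% of all tested genes. At an unadjusted p below 0.05, 8 were lower and 0 higher, against the 13.1% and 12.5% of all tested genes given above. Per3 fell from 58.7 ± 6.42 to 21.3 ± 7.31 CPM (-1.47 ± 0.24, edgeR adjusted p = 0.0139), and Cry1 fell by 1.16 ± 0.20 and Cry2 by 0.48 ± 0.12 on the log2 scale (edgeR adjusted p = 0.0105 and 0.0433). Cry2 lost its call without any library but Lira164 (adjusted p up to 0.152), with library totals (0.0878) or upper quartile factors (0.0504), and at a mean of at least 5 CPM (0.0512). Per3 lost its call without Lira161 (0.0625) or PBS158 (0.0508). The count of 3 was 1 without Lira161 or PBS158, 8 without Lira164, 7 with DESeq2 and 5 with limma-voom. Times of dissection were not analysed here, and the part of the clock genes in the value of Nampt was not tested. The E-box CACGTG, which clock factors bind, was in 0 of the 8 member windows and in 7.15% of all windows. At that share 0 of 8 is not unusual, so the search cannot tell the enzymes from other genes. Binding of clock factors was not tested.

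The enzymes spanned a wide range of levels. Their order per kilobase rests on GENCODE exon lengths and is rough, since the annotation used for counting is unknown. Per kilobase of exon, Tdo2 led at 512 ± 68.7 CPM per kb under PBS, followed by Kmo at 95.4 ± 7.13, Haao at 70.0 ± 8.56, Afmid at 51.5 ± 6.25 and Qprt at 43.1 ± 5.18 (SD, n = 3). Ido2 at 26.0, Kynu at 25.8 and Nampt at 22.0 came next, with Nadsyn1 at 7.19 and Acmsd at 1.97 CPM per kb at the end. Afmid and Qprt, Ido2 and Kynu, and Kynu and Nampt were neighbours whose PBS libraries overlapped. All other neighbours in this order were apart in every library. Under liraglutide Qprt (43.7 CPM per kb) stood above Haao (36.6), with overlapping libraries, and Kynu (26.9) above Afmid (21.3), also with overlap. Ido2, at 9.68 CPM per kb, dropped below Nampt, and its libraries overlapped those of Nadsyn1.

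**Figure D3:**
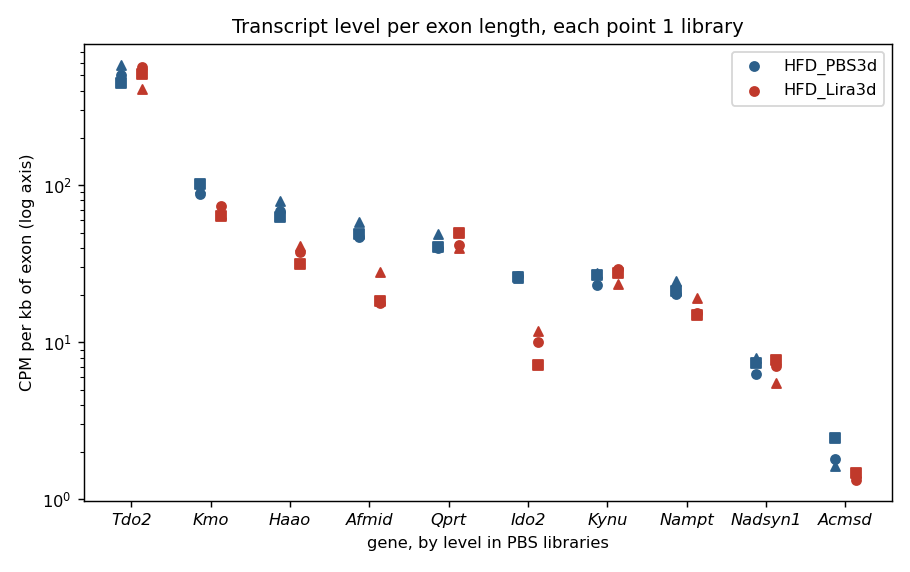
Transcript level per kilobase of exon on a log axis, each point 1 library, genes ordered by the mean of the PBS libraries. Tdo2 lies near 500 and Acmsd between 1 and 3 CPM per kb in both groups, and Ido2, Afmid and Haao are shifted down under liraglutide.

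The genes that fell did so to different extents in the same library. Lira162 had the lowest Ido2, Kmo and Haao of its group, at 27.6%, 67.2% and 45.2% of the PBS mean. Lira164 had the highest Ido2, Afmid and Haao, at 45.3%, 54.2% and 58.3%. For each of the 4 genes that fell, the 3 most alike tested genes were found by the root-mean-square difference of log2 CPM over the 6 libraries, each gene centred on its own mean, among 9258 genes with at least 5 CPM. For Ido2 they were Tlcd2, Akr1c14 and Scnn1a, with differences of 0.10, 0.11 and 0.12. Nit2, Spc24 and Hnmt were nearest to Afmid (0.12 each). For Kmo they were Prss36, 9030617O03Rik and Slc6a12 (0.04 each), and for Haao Trim34a (0.04), Nudt2 and Chac2 (0.07 each).

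Genes that lead off or extend the kynurenine pathway also fell where they changed. The glutarate route oxidises the carbon chain that Acmsd passes on, and that of lysine. Of 10 tested genes of the side branches and of this route, 3 fell and 0 rose (median log2 fold change -0.36). At an unadjusted p below 0.05, 5 were lower and 0 higher. Over all tested genes 4.69% fell and 4.08% rose, and 13.1% and 12.5% did so at an unadjusted p below 0.05. DESeq2 and limma-voom also called 3 lower and 0 higher. Kyat1, listed under its older symbol Ccbl1, makes kynurenic acid from kynurenine. It was at 61.0, 40.8 and 56.4 CPM under liraglutide and at 104.1, 135.7 and 114.7 under PBS, with no overlap (-1.16 ± 0.16, edgeR adjusted p = 0.00601). Dhtkd1, a 2-oxoadipate dehydrogenase gene, fell by 0.63 ± 0.09 and Gcdh, the glutaryl-CoA dehydrogenase gene, by 0.55 ± 0.11 (edgeR adjusted p = 0.00669 and 0.0187). Gcdh did not pass once PBS158, Lira161 or Lira162 was left out (adjusted p up to 0.0780). The other aminotransferase genes of the branch, Kyat3 (Ccbl2) and Aadat, had log2 fold changes of -0.38 and -0.40 and did not pass the test.

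Among 10 tested genes of NAD salvage, NADP synthesis and transport beside Nampt, 2 rose and 0 fell (2 and 3 at an unadjusted p below 0.05). The shares of all tested genes were 4.08% and 4.69% (12.5% and 13.1% at an unadjusted p below 0.05). Nadk, the cytosolic NAD kinase gene, was at 274.7, 308.6 and 287.0 CPM under liraglutide and at 206.5, 224.3 and 198.5 under PBS (0.47 ± 0.10, edgeR adjusted p = 0.0244). Nnt, the transhydrogenase that makes NADPH in mitochondria and is known to carry a deletion in C57BL/6J, rose from 53.8 ± 3.48 to 88.2 ± 10.5 CPM (0.71 ± 0.11, adjusted p = 0.00723). Of these, Nadk passed without Lira164 and lost its call without any other single library (adjusted p up to 0.101), which left 1 gene. Nmrk1, a nicotinamide riboside kinase gene, was at 20.7 ± 6.53 against 38.3 ± 6.80 CPM (-0.89 ± 0.23, adjusted p = 0.0571). DESeq2 called 2 lower members of this list and limma-voom 1.

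Of 16 tested genes that consume NAD or clear nicotinamide, 2 fell and 0 rose (median log2 fold change -0.07), against 4.69% and 4.08% of all tested genes. At an unadjusted p below 0.05, 5 were lower and 1 higher, against 13.1% and 12.5%. DESeq2 called 3 lower and 1 higher, limma-voom 2 and 0. Aox3, an aldehyde oxidase gene, was at 289.5, 171.1 and 364.4 CPM under liraglutide and at 925.3, 689.0 and 888.6 under PBS (-1.60 ± 0.27, edgeR adjusted p = 0.0155). Sirt4, a mitochondrial sirtuin gene, fell by 0.51 ± 0.13 (adjusted p = 0.0419). Aox3 lost its call without Lira161 or PBS158 (adjusted p up to 0.0605), and Sirt4 without any library but Lira164 (up to 0.156) and with library totals or no low-count filter (0.0590 and 0.0522). The count of 2 was therefore 0 without Lira161 or PBS158 and 1 without Lira162, PBS155 or PBS157. Sirt1 (-0.26), Parp1 (-0.08) and Nnmt (-0.22), known for using NAD or nicotinamide, did not pass the test.

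For tryptophan transport and other uses of tryptophan, 1 of 10 tested genes rose and 0 fell, against 4.08% and 4.69% of all tested genes. At an unadjusted p below 0.05, 3 were higher and 1 lower, against 12.5% and 13.1%. DESeq2 called 2 higher and 0 lower, limma-voom 1 and 1. Slc16a10, a carrier of aromatic amino acids, rose from 110.3, 111.6 and 111.1 CPM in the PBS libraries to 174.4, 176.6 and 155.1 CPM in the liraglutide libraries (0.60 ± 0.09, edgeR adjusted p = 0.00756). The groups were far apart against the spread within them. Inmt had the largest change of the list, in the other direction, and did not pass the test (-1.50 ± 0.46, edgeR adjusted p = 0.111). It was at 99.3, 105.7 and 282.8 CPM under liraglutide and at 522.1, 359.7 and 498.8 CPM under PBS, without overlap. The median log2 fold change of the 10 was 0.29, with 3 of them below 0. Tph1, which opens the serotonin route, had 0 counts in all libraries.

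**Figure D4:**
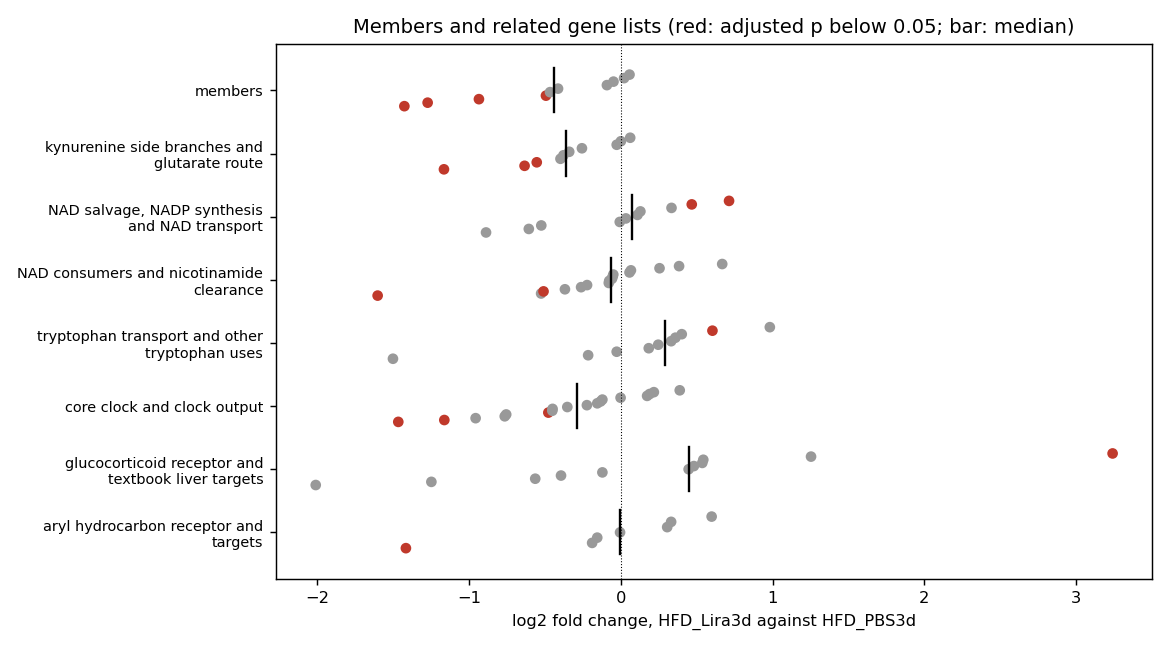
Log2 fold changes of the 10 enzymes (top row) and of the tested genes of 7 related lists, each point 1 gene, red for an adjusted p below 0.05, black bars for medians. The median of the enzymes is -0.44 and that of the side branch and glutarate list -0.36, against 0.07 for NAD salvage and transport and 0.29 for tryptophan transport and other uses.

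Markers of other liver cells moved with the groups in part. Of 10 endothelial markers 3 were higher under liraglutide and 0 lower, at a summed 322 to 469 CPM against 184 to 322. Over all tested genes 4.08% were higher. The median log2 fold change of the 10 was 0.74, with 0 of them below 0. At an unadjusted p below 0.05, 5 were higher. DESeq2 called 4 higher and limma-voom 3. None of 12 macrophage markers (307 to 483 against 139 to 543 CPM) and 0 of 10 stellate cell markers (344 to 397 against 213 to 362 CPM) passed the test, with 0 and 0 at an unadjusted p below 0.05 and 0 and 0 called by DESeq2 or limma-voom. The median log2 fold change was 0.53 for macrophage markers (1 of 12 below 0) and 0.17 for stellate cell markers (3 of 10 below 0). Of 5 tested cholangiocyte markers 1 fell (26.6 to 28.6 against 42.0 to 50.9 CPM, mostly Spp1). T and NK cell markers summed to at most 3.98 CPM. Of 4 tested, 1 was lower and 0 higher, but 2 were higher and 1 lower at an unadjusted p below 0.05. Their median log2 fold change was 0.95. Markers of B cells, neutrophils and adipocytes summed to at most 3.81 CPM, with 0 called but for 1 lower adipocyte marker in DESeq2. Of the erythroid markers Alas2, the 1 tested, fell (17.7 to 39.7 against 77.2 to 90.9 CPM), while Hba-a1 was listed at 0 and Slc4a1 was below 1 CPM. Exocrine pancreas markers summed to 7.34 to 10.3 against 11.0 to 22.9 CPM, with Pnlip and Amy2a5 at 0. The part of these cells in the values of the 10 enzymes was not tested.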

How the data were processed

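Raw read counts per gene symbol, whole numbers without normalization, were deposited by the authors in 1 table. STAR and the build mm10 are named in the submitters' processing notes; the sources used here do not give versions, counting tool, annotation or strand setting. Columns carry the group and a number unlike the triplicate numbers of the labels, so they were assigned to groups only.

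Genes were kept by filterByExpr (12626 of the 16949 with at least 1 count), scaled by TMM factors and fitted in edgeR 4.0.16 (R 4.3.3; estimateDisp, robust glmQLFit, glmQLFTest) on group alone. Tests are two-sided, with Benjamini-Hochberg adjustment over all tested genes and a threshold of 0.05. SE is the log2 fold change divided by the square root of F, and 95% intervals use the fit's total degrees of freedom. Log2 CPM used a prior count of 2. Positions and exon lengths come from GENCODE M21 (GRCm38, the assembly of mm10), promoter windows from RefSeq (GRCm38.p6). The exon length of a gene covers all its listed transcripts and can differ from that of the transcripts present. The fit was tested on simulated counts, where it recovered nearly all of the largest changes but a minority of the smallest, and where the share of false calls was above the nominal threshold.

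The enzymes, lists and alternatives were chosen with earlier results of these data known. All 10 enzymes are named, with up to 4 called genes per list by p (or the 2 most abundant), the 3 genes most like each called enzyme, and genes that overlap an enzyme or start within 2000 bp. Genes given beyond this rule were chosen after their values were seen. Alternatives were other scalings, filters and tools (DESeq2 1.42.0, limma-voom 3.58.1), leaving out each library, and leaving out the 10 most abundant genes. One marker gene is not reported here. Figures used matplotlib 3.10.9.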

Additional observations from a re-analysis of the deposited data

How the results depend on the processing

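Ido2, Afmid and Haao kept their direction and an adjusted p below 0.05 under all 14 alternatives (adjusted p up to 0.0203, 0.0315 and 0.0280). Leaving out each library in turn gave 3 to 5 fallen enzymes and 0 that rose; DESeq2 gave 5. With a library left out, 393 to 1496 genes changed and 231 to 802 fell, against 1107 and 592. With library totals as the scaling 57.2% of called genes were higher, against 46.5% with TMM, and the median of all tested genes was 0.06. Signs changed where the value was near 0: Tdo2 was at 0.0019 with library totals and at -0.156 to 0.0591 with a library left out, Kynu at -0.0253 to 0.132, Qprt at -0.0813 to 0.125 and Nadsyn1 at -0.202 to 0.0242; the cause was not tested. Acmsd was not tested at a mean of at least 5 CPM and has few counts, which limits its precision. No paired analysis was possible because the columns carry none of the triplicate numbers of the labels.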

Other observations

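Tdo2 is a textbook target of the glucocorticoid receptor, as is Tat, the tyrosine aminotransferase gene. Of 11 tested genes of that receptor and its liver targets, 1 rose and 0 fell (3 and 3 at an unadjusted p below 0.05), with 3 and 2 in DESeq2 and 2 and 2 in limma-voom. Over all tested genes 4.08% rose and 4.69% fell (12.5% and 13.1% at an unadjusted p below 0.05). The median log2 fold change of the 11 was 0.45, with 5 of them below 0. Groups did not overlap for 3 higher and 2 lower genes of the list, against 1879 higher and 2072 lower of all 12626 tested genes. Zbtb16, a transcription factor gene, was at 93.9, 102.4 and 54.2 CPM under liraglutide and at 4.07, 8.99 and 13.7 CPM under PBS (log2 fold change 3.24 ± 0.50, edgeR adjusted p = 0.0219). Tat was at 2214 against 1519 CPM (0.54 ± 0.27, adjusted p = 0.249). Sgk1 and Fkbp5, of the same list, had log2 fold changes of 0.54 ± 0.18 and 0.48 ± 0.55 with overlapping groups (edgeR adjusted p = 0.102 and 0.637). The metallothionein genes Mt2 and Mt1 had log2 fold changes of -2.01 ± 0.49 and -1.25 ± 0.37, with every liraglutide library below every PBS library, and did not pass the test (adjusted p = 0.0668 and 0.0995). Tsc22d3, also a known target of the receptor, had a log2 fold change of -0.56 ± 0.31 with overlapping groups (adjusted p = 0.315). Zbtb16 did not pass once PBS157, Lira161 or Lira162 was left out, nor with no low-count filter (adjusted p up to 0.0991).

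Kynurenine and its products are known ligands of the aryl hydrocarbon receptor. Of 7 tested genes of this receptor and its targets, 1 fell and 0 rose, against 4.69% and 4.08% of all tested genes. The median log2 fold change of the 7 was -0.005. At an unadjusted p below 0.05, 1 was lower and 1 higher, against 13.1% and 12.5% of all tested genes. DESeq2 and limma-voom also called 1 lower and 0 higher. The 1 that fell was Cyp1a2, a cytochrome P450 gene, at 156.5, 90.2 and 169.8 CPM under liraglutide against 447.5, 276.4 and 386.4 under PBS (-1.42 ± 0.27, edgeR adjusted p = 0.0248). It did not pass once PBS158, PBS155 or Lira161 was left out, nor with no low-count filter (adjusted p up to 0.0893). Tiparp and Nqo1 had log2 fold changes of 0.31 and 0.60 without passing the test, and Cyp1a1 stayed below 1 CPM on average in both groups. The part of the kynurenine pathway in the value of Cyp1a2 was not tested.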
